A study of Gallus gallus with 4 samples.

Results

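The weight response of a breed was taken as the expression in the light birds minus that in the heavy birds, on the scale of log2(FPKM + 1), where FPKM is the number of fragments of a gene scaled to its transcript length and to the mapped reads of its library. The contrast described here is the Xinghua response minus the White Rock response, (XHl minus XHh) minus (WRRl minus WRRh), so a positive difference means a gene stood higher in light than in heavy Xinghua relative to the same step in White Rock. Of 17934 gene IDs, 11706 were above 0 in all 4 libraries, and the 7375 of these with a mean of at least 5 FPKM were the members. Left out were 4331 genes below that mean and 132 genes that reached it but were listed at 0 in some library.

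Breast muscle RNA came from female chickens at 7 weeks of age. WRRh and WRRl were the heavy and light tails of the fast-growing Recessive White Rock, with mean body weights of 1064.0 ± 11.1 g and 695.0 ± 24.4 g, and XHh and XHl were those of the slow-growing Xinghua, at 305.8 ± 23.3 g and 207.6 ± 11.1 g (n = 3 birds each, the kind of error not being stated). All birds had free access to the same diet, and 3 birds were pooled into 1 library per group. With 1 library per condition no difference has a replicate check, so results are given by size and without a p-value. Each breed had its own supplier, so breed and supplier cannot be told apart, and a response set by 1 bird of a pool cannot be told apart from one shared by its 3 birds.

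Chicken breast muscle is built almost wholly of fast glycolytic fibres, which hold fast isoforms of myosin, troponin and tropomyosin. Between the fibres lie fibroblasts, which make the collagen matrix, along with vessels, tendon ends and resident macrophages, whose lysosomes digest cell debris. Immediate early genes encode short-lived transcription factors and signalling regulators that cells switch on within minutes of a stimulus.

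The tissue label was checked against fast muscle genes. Of the 33 genes on the list of the fast sarcomere, 23 matched a gene ID and 20 of them were above 0 in all 4 libraries, with a summed level between 37693 and 46027 FPKM, while TNNC2, TMOD4 and XIRP2 were listed at 0 in every library. TNNI2, the fast troponin I, stood at 10221 FPKM in WRRh and 9572 in WRRl, against 10559.5 in XHh and 8535 in XHl. GAPDH, which every cell uses, was also listed at 0 in all 4 libraries, so a 0 here is a listed value and not a measured absence. The tables hold no counts per gene. The study reports the reads of each library, with the most in XHl, and they were not used here. Below, 4 levels given without group names follow the order WRRh, WRRl, XHh, XHl, and a pair of responses gives White Rock first.

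Across all members the responses were small. The median response was 0.02 in White Rock (SD over genes 0.39) and 0.06 in Xinghua (SD over genes 0.30), and the median difference was 0.03, with the 5th percentile at -0.73 and the 95th at 0.63. A response of 1 or more, or 2-fold, was seen in 161 genes in White Rock (2.18%) and 47 in Xinghua (0.637%), and one of -1 or less in 39 (0.529%) and 22 (0.298%). Just 15 members reached 1 in both breeds (0.203%) and 1 member reached -1 in both (0.0136%).

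The responses were at least 2-fold apart for 292 members (3.96%), of which 112 were higher in the Xinghua response (1.52%) and 180 lower (2.44%). The members nearest this limit had differences of 1.001 inside and 0.997 outside on the higher side, and -1.002 and -0.999 on the lower side. In 98 genes the response was at least 2-fold in White Rock and under 0.5 in size in Xinghua (1.33%). In 26 it was at least 2-fold in Xinghua and under 0.5 in size in White Rock (0.353%). In 50 the responses had opposite signs and each was at least 0.5 in size (0.678%), and the other 118 met none of these descriptions (1.6%), 65 of them with a difference below 0 (0.881%). The 1 library that lay farthest from the other 3 was WRRl for 131 of the 292, WRRh for 72, XHh for 47 and XHl for 42. Over all members the shares were 33.0% for WRRl, 23.1% for WRRh, 24.1% for XHh and 19.8% for XHl. Among the 98 White Rock genes it was WRRl for 75 and WRRh for 23.

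**Figure D1:**
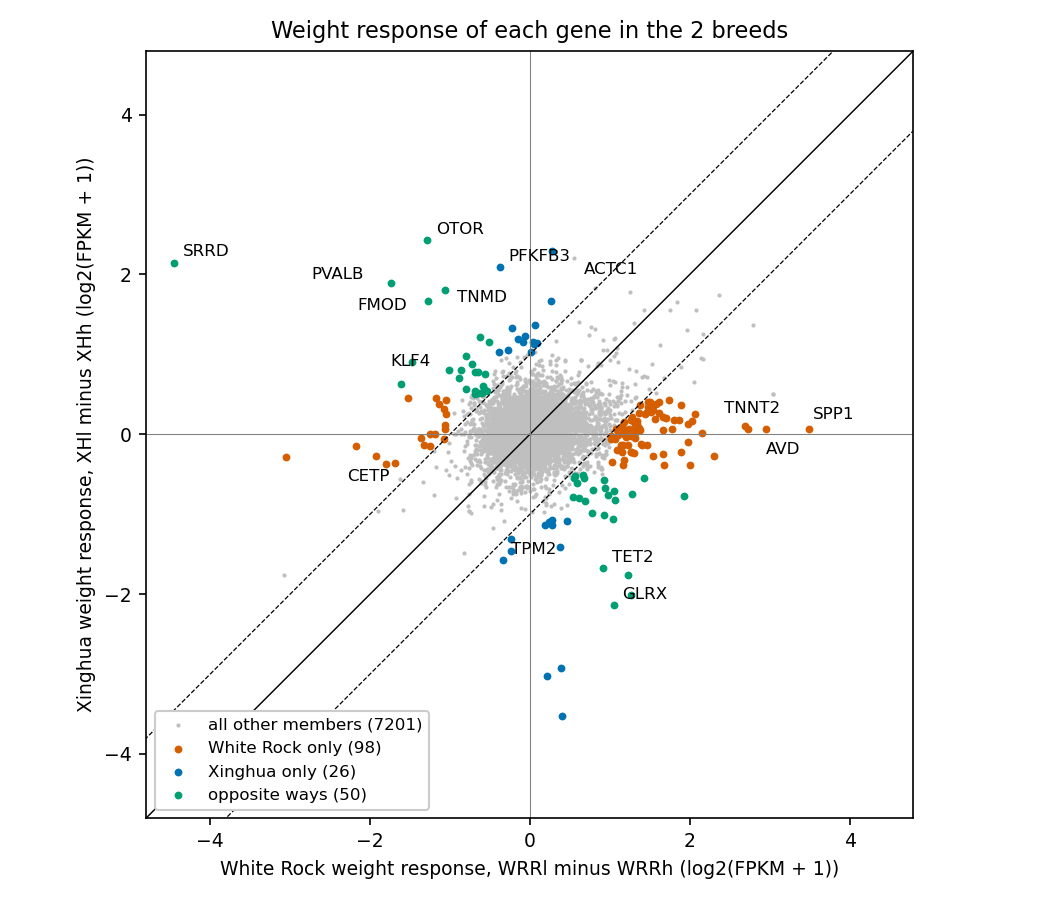
Each point is 1 of the 7375 members, with the White Rock response (WRRl minus WRRh) on the x axis and the Xinghua response (XHl minus XHh) on the y axis, both in log2(FPKM + 1). The solid line marks equal responses and the dashed lines a difference of 1. The 98 White Rock genes lie along the horizontal axis, most of them on its right, and the 50 opposite genes lie in the upper left and lower right.

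Of the 41 gene lists with at least 5 members, 9 had a median difference of -0.25 or less and 1 of 0.25 or more, and macrophage genes had the lowest median. The 20 members on the list of macrophages and myeloid cells had a median response of 1.28 in White Rock and 0.34 in Xinghua, and a median difference of -0.90 against 0.03 for all members. Of the 20, 16 were at least 2-fold higher in light than in heavy White Rock, against 2.18% of all members, and none in Xinghua, against 0.637%. A difference of -1 or less was found for 8, against 2.44% of all members, and one of 1 or more for none. Under 1 FPKM in both Xinghua libraries were 3 of the 20, which passed the minimum mean through White Rock alone. Other members under 5 FPKM in both Xinghua libraries, such as LGALS3 and MARCO, also needed White Rock to pass it. The counts for this list therefore follow in part from that filter. Of the 20, 19 were higher in the light birds of both breeds, against 34.5% of all members. The difference was below 0 in 19, against 45.6% of all members. In bulk tissue, fewer cells of a type and less RNA per cell cannot be told apart.

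SPP1, osteopontin, a matrix protein secreted by activated macrophages, had 32.6 FPKM in WRRh and 377 in WRRl, against 0.546 in XHh and 0.619 in XHl. It passed the minimum mean through its White Rock libraries alone, and its responses were 3.49 in White Rock and 0.07 in Xinghua. MARCO, a scavenger receptor of macrophages, stood at 8.47, 31.4, 4.21 and 4.45 FPKM, a difference of -1.71. Both genes were high in the light White Rock library and near level between the 2 Xinghua libraries.

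CYBB, the catalytic subunit of the phagocyte NADPH oxidase, had 6.98 FPKM in WRRh and 28.0 in WRRl, against 0.619 in XHh and 0.834 in XHl, with a difference of -1.68, and like SPP1 it passed the minimum mean through White Rock alone. LGALS3, galectin-3, whose locus overlaps another gene model, had 26.9, 102, 1.76 and 2.57 FPKM and a difference of -1.52. It too passed the minimum mean through White Rock alone. SPI1, the transcription factor PU.1 that specifies myeloid cells, had 26.2 FPKM in WRRh and 79.6 in WRRl, against 11.4 in XHh and 13.1 in XHl. In all 3 genes WRRl was the highest library and both Xinghua libraries lay below WRRh.

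The complement genes C1QA, C1QB and C1QC, which encode the chains of C1q and whose loci overlap other gene models, were less far apart, with differences of -0.55, -0.31 and -0.69. The pseudocount bears on genes that are low in Xinghua. Without a pseudocount, 7 of the 20 macrophage genes instead of 8 had a difference of -1 or less, and their median difference was -0.80. Summed over the 32 of 54 listed markers that matched a gene ID, of which 30 were above 0 in all 4 libraries and none was at 0 in all 4, the level was 509 FPKM in WRRh and 1607 in WRRl, against 170.2 in XHh and 229 in XHl.

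The list of T cells had the second lowest median difference of the 41 lists, at -0.62. Its median responses were 1.02 in White Rock and 0.40 in Xinghua. Of the 26 listed symbols that matched a gene ID, 8 were members. The difference was below 0 in 5 of these 8, against 45.6% of all members. Within this list, 2 T cell receptor genes were the members that reached 1 in Xinghua. These and a pair of immunoglobulin genes were at least 2-fold higher in the light birds of both breeds. TRAC, the constant region of the T cell receptor alpha chain, had 18.3 FPKM in WRRh and 39.5 in WRRl, against 4.63 in XHh and 11.99 in XHl, with responses of 1.07 and 1.21. TRBC2, of the beta chain, had 10.6, 27.6, 1.95 and 6.73 FPKM and responses of 1.30 and 1.39. In each breed the light library was the higher one, and the breeds were within 0.14 of each other on the log2 scale.

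The immunoglobulin lambda gene LAC_CHICK stood at 556 FPKM in WRRh and 1997 in WRRl, against 26.3 in XHh and 84.8 in XHl, with responses of 1.84 and 1.65. IGJ, the joining chain of secreted immunoglobulins, had 131 FPKM in WRRh and 443 in WRRl, against 7.61 in XHh and 24.4 in XHl, with responses of 1.75 and 1.56. Both loci overlap another gene model. Levels differed widely between the breeds while the steps from heavy to light were alike in size.

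IL2RG, the common gamma chain of interleukin receptors, had 23.3 FPKM in WRRh and 68.4 in WRRl, against 7.72 in XHh and 9.58 in XHl, a difference of -1.24. It was the 1 of the 8 T cell list members that lay at least 2-fold apart, against 3.96% of all members. Of the 7 members on the list of heterophils, the avian counterpart of neutrophils, and acute phase genes, CSTA and AVD had differences of -1 or less. That compares with 2.44% of all members. The median difference of the 7 was -0.42, with 5 below 0 and 2 above 0, TF among the latter at 0.50. Over all members 45.6% were below 0 and 54.4% above 0. CSTA, a cystatin that inhibits cysteine proteases, had 103 FPKM in WRRh and 426 in WRRl, against 6.24 in XHh and 7.09 in XHl. AVD, avidin, a biotin-binding protein induced in inflamed chicken tissue, whose locus overlaps another gene model, had 77.8, 611, 24.7 and 26.0 FPKM. Both stood far higher in WRRl than in any other library.

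Lysosomal genes had the same direction as the macrophage genes, by less. The 40 lysosome members had median responses of 0.54 in White Rock and 0.15 in Xinghua and a median difference of -0.50. The difference was below 0 in 35 of the 40, whereas it was above 0 in 54.4% of all members. It was -1 or less in 4, against 2.44% of all members, and 1 or more in none. The macrophage markers moved with the lysosome genes, and their part in this result was not tested.

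The 4 lysosome genes that were 2-fold apart included a pair of subunits of the proton pump that acidifies lysosomes. ATP6V0D2 had 6.20 FPKM in WRRh and 30.9 in WRRl, against 1.31 in XHh and 1.34 in XHl, a difference of -2.13. ATP6V1C2, whose locus overlaps another gene model, had 4.16, 20.7, 0.473 and 0.752 FPKM, a difference of -1.82. Both reached the minimum mean through WRRl, so their standing high there follows in part from that filter.

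LIPA, the acid lipase that frees cholesterol from its esters, had 38.8 FPKM in WRRh and 125 in WRRl, against 10.9 in XHh and 12.9 in XHl, with a difference of -1.45. GUSB, a glucuronidase that degrades glycosaminoglycans, had 12.7 FPKM in WRRh and 30.6 in WRRl, against 6.57 in XHh and 6.83 in XHl, with a difference of -1.16. The more widely used pump subunits ATP6V1D and ATP6V0A1 were near level, with differences of 0.03 and -0.08. ATP6V0E2, a pump subunit outside the lysosome list, went the other way. It had 6.85 FPKM in WRRh and 6.39 in WRRl, against 2.08 in XHh and 5.89 in XHl, a difference of 1.25. It reached the minimum mean through the libraries other than XHh, so its pattern follows in part from that filter. Across the processing settings its difference ran from 0.68 to 1.60.

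Antigen presentation and interferon genes were higher in light White Rock and nearly level in Xinghua, with median responses of 0.50 and 0.03 over 22 members. Of these, 10 were higher in light White Rock and lower in light Xinghua, which was 45.5% against 18.0% of all members. Differences of -1 or less were found for 3, EPSTI1, ISG12-2 and IRF7, against 2.44% of all members, and of 1 or more for none. EPSTI1 had 4.29 FPKM in WRRh and 11.7 in WRRl, against 2.84 in XHh and 2.29 in XHl. It reached the minimum mean through WRRl, so its place among the 3 follows in part from that filter. With a pseudocount of 5 EPSTI1 was at -0.95 and IRF7 at -0.76, which left 1 of the 3. The macrophage and T cell markers moved with these genes, and their part in the result was not tested.

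ISG12-2, an interferon-induced gene, had 27.7 FPKM in WRRh and 70.6 in WRRl, against 13.7 in XHh and 13.8 in XHl. IRF7, a transcription factor of the interferon response, had 6.13, 13.0, 5.70 and 5.22 FPKM, with a White Rock response of 0.98 and a Xinghua response of -0.11. B2M, the light chain of class I major histocompatibility molecules, had 1556 FPKM in WRRh and 2267 in WRRl, against 1277 in XHh and 1252 in XHl, with a difference of -0.57. WRRl was the highest library for each of these genes.

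**Figure D2:**
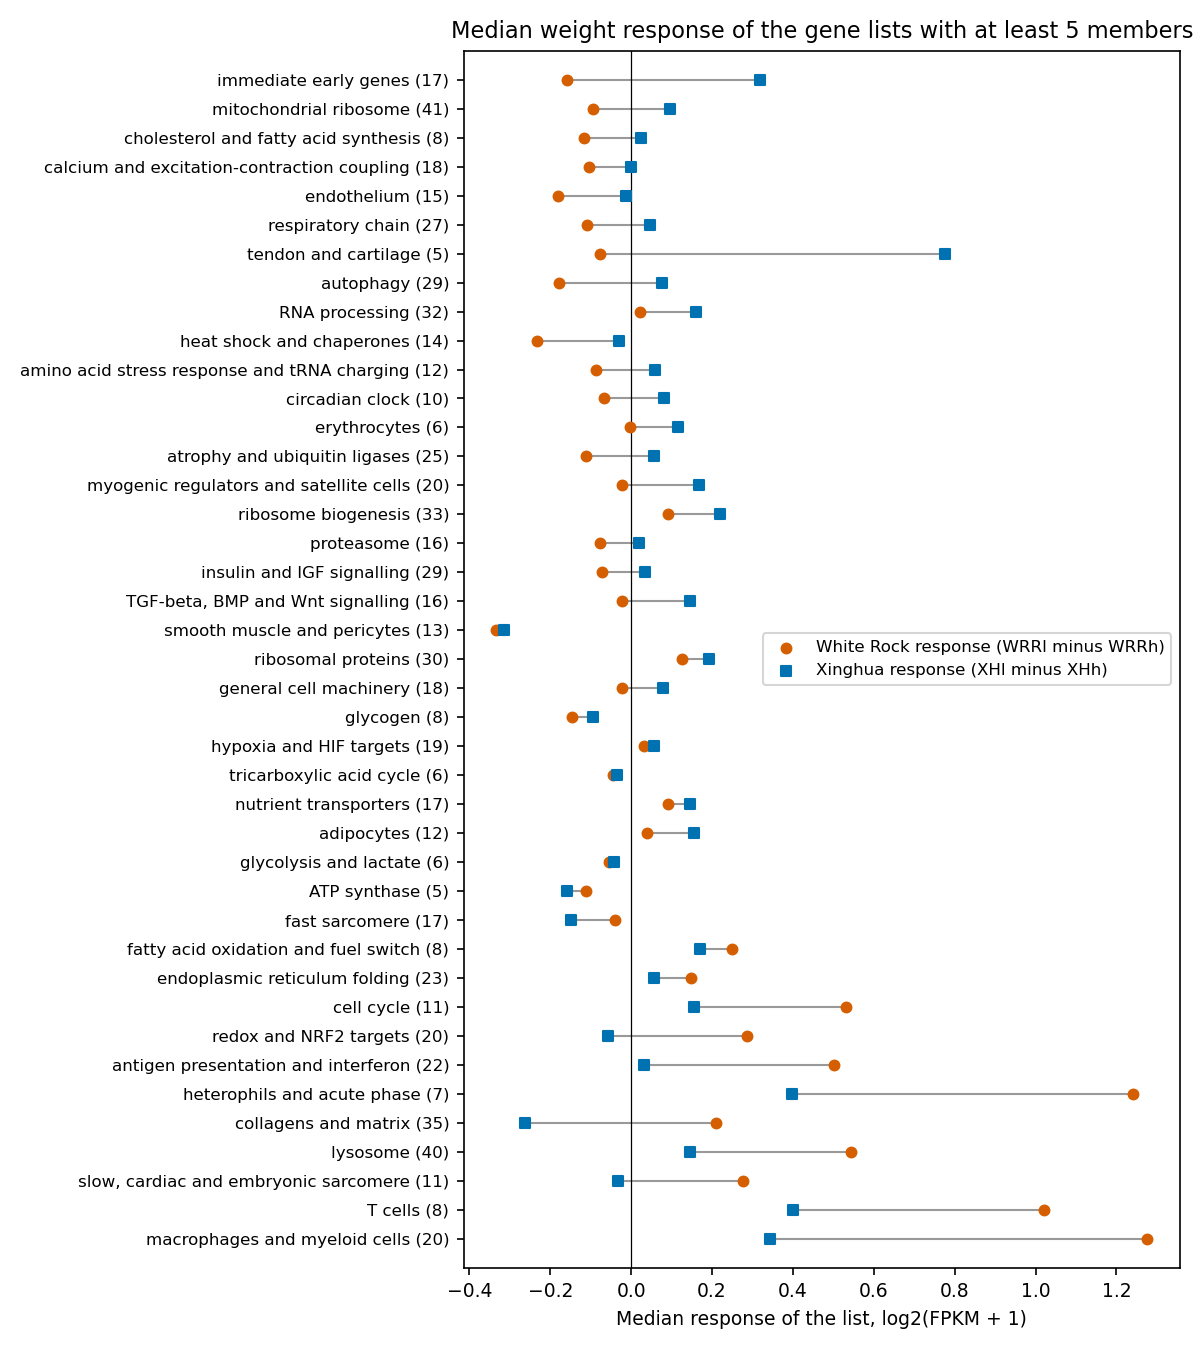
The median response of each of the 41 gene lists with at least 5 members is shown for White Rock (circles) and Xinghua (squares) on an axis of log2(FPKM + 1), with the number of members in brackets and the lists ordered by the median difference. Macrophage, T cell and heterophil lists have White Rock medians above 1, and the medians of collagens and matrix and of immediate early genes lie on opposite sides of 0.

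Most collagen and matrix genes had responses of opposite sign in the 2 breeds, by small steps. The 35 members had a median response of 0.21 in White Rock and -0.26 in Xinghua, a median difference of -0.47. Of the 35, 24 were higher in light White Rock and lower in light Xinghua, which was 68.6% against 18.0% of all members, while 2 had the reverse pattern. A difference of 2-fold was reached by 2 genes on the lower side and 1 on the higher, against 2.44% and 1.52% of all members.

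COL1A1, a chain of the main fibril collagen, had 1003 FPKM in WRRh and 1270.2 in WRRl, against 635 in XHh and 455 in XHl, with responses of 0.34 and -0.48. COL6A3, a chain of the collagen that anchors the fibre surface, had 66.4, 76.4, 32.0 and 19.7 FPKM, with responses of 0.20 and -0.67. LUM, lumican, a proteoglycan that binds collagen fibrils, had 182 FPKM in WRRh and 244 in WRRl, against 85.9 in XHh and 68.5 in XHl, with responses of 0.42 and -0.32. In each of these genes the gap between the breeds was wider among light birds than among heavy birds.

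FN1, fibronectin, whose locus overlaps another gene model, had 69.6 FPKM in WRRh and 157 in WRRl, against 26.9 in XHh and 20.5 in XHl, a difference of -1.54. COL14A1, a collagen bound to the surface of fibrils, had 6.13, 12.4, 3.77 and 2.38 FPKM and a difference of -1.40. COL14A1 reached the minimum mean through WRRl, so its place here follows in part from that filter. Both followed the direction of most of the list. The summed level of the 41 of 54 listed matrix genes that matched a gene ID, none of which was at 0 in all 4 libraries, was 4829.5 FPKM in WRRh and 5719 in WRRl, against 3055 in XHh and 2531 in XHl.

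Fibromodulin, on the same list, and a pair of tendon and cartilage genes went the other way. FMOD, a proteoglycan of tendon and cartilage, had 15.2 FPKM in WRRh and 5.70 in WRRl, against 3.25 in XHh and 12.4 in XHl, with responses of -1.28 and 1.66. TNMD, tenomodulin, a marker of tendon cells, had 8.35, 3.47, 1.34 and 7.18 FPKM, with responses of -1.07 and 1.81. OTOR, otoraplin, a secreted protein found in cartilage and the inner ear, had 12.6 FPKM in WRRh and 4.61 in WRRl, against 2.75 in XHh and 19.3 in XHl, with responses of -1.28 and 2.43. For these 3 genes the heavy White Rock and light Xinghua libraries were high and the other 2 low. All 3 reached the minimum mean through that high pair, so their pattern follows in part from that filter.

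The list of tendon and cartilage had 5 members, of which TNMD and OTOR alone were 2-fold apart, against 3.96% of all members. COMP, a matrix protein of cartilage and tendon, had 131 FPKM in WRRh and 202 in WRRl, against 40.0 in XHh and 69.2 in XHl, so it was higher in the light birds of both breeds. CILP, of cartilage, had 44.9, 42.5, 38.6 and 27.5 FPKM. Of the 27 listed markers 15 matched a gene ID and 8 were above 0 in all 4 libraries, with COL2A1 and MATN1 at 0 in every library. Their summed level was 264 FPKM in WRRh and 320 in WRRl, against 111 in XHh and 152 in XHl, and how far tendon was taken along with the muscle was not tested.

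Immediate early genes were the 1 list with a median difference of 0.25 or more. Their 17 members had a median response of -0.16 in White Rock and 0.32 in Xinghua, and a median difference of 0.49. The difference was above 0 in 14 of the 17, against 54.4% of all members. It was 1 or more in 4, against 1.52%, or in 3 with a pseudocount of 5, and -1 or less in none.

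KLF4, a zinc finger transcription factor, had 70.9 FPKM in WRRh and 34.7 in WRRl, against 17.7 in XHh and 31.6 in XHl, with responses of -1.01 and 0.81. KLF2, its relative that is induced by blood flow in endothelium, had 14.97, 6.57, 6.77 and 8.69 FPKM, with responses of -1.08 and 0.32. BTG2, an antiproliferative gene, had 171 FPKM in WRRh and 135 in WRRl, against 177 in XHh and 293 in XHl, with responses of -0.33 and 0.72. The Kruppel-like factors were highest in WRRh, and BTG2 was highest in XHl.

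CTGF, a matricellular growth factor, had 95.4 FPKM in WRRh and 53.5 in WRRl, against 22.2 in XHh and 26.3 in XHl, with a difference of 1.06. EGR1, a zinc finger factor on the same list, had responses of -0.16 and -0.18, and its difference was -0.02. ABRA, a muscle activator of serum response factor signalling that is on no list here, had 127 FPKM in WRRh and 88.5 in WRRl, against 84.3 in XHh and 189 in XHl, with responses of -0.52 and 1.16.

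Inhibitors of BMP and TGF-beta signalling were among the genes that stood higher in light Xinghua. SMAD7, which blocks TGF-beta receptors, had 6.37 FPKM in WRRh and 6.73 in WRRl, against 1.51 in XHh and 5.50 in XHl, with responses of 0.07 and 1.37. SMAD6, which blocks BMP receptors, had 9.26, 8.40, 3.54 and 7.50 FPKM and a difference of 1.03. ID1, a target of BMP signalling whose locus overlaps another gene model, had 68.0 FPKM in WRRh and 37.1 in WRRl, against 33.9 in XHh and 59.9 in XHl, a difference of 1.66. For SMAD7 and SMAD6 the heavy Xinghua library alone was low. SMAD7 lay just above the minimum mean and reached it through the other libraries, so its pattern follows in part from that filter. Over the 16 members on the list of TGF-beta, BMP and Wnt signalling the median difference was 0.06, with 3 members of 1 or more and 1, SFRP2, of -1 or less. The shares over all members were 1.52% and 2.44%. With a pseudocount of 5 the difference was 0.64 for both SMAD6 and SMAD7 and -0.79 for SFRP2, which left ID1, and centring the responses on their medians gave 0.99 for SMAD6.

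**Figure D3:**
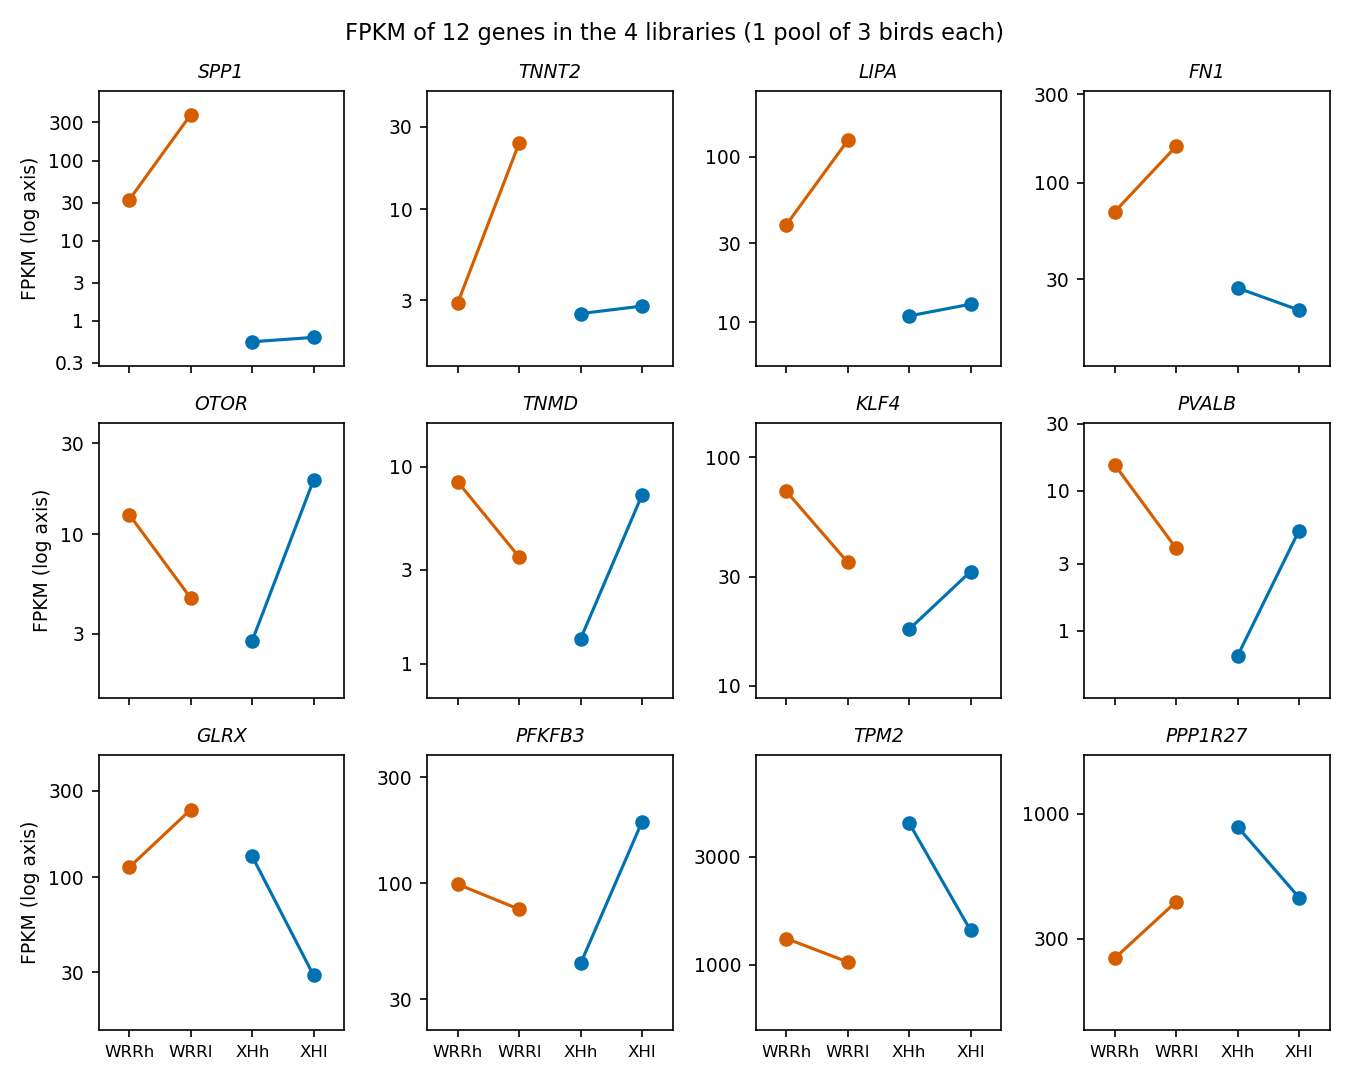
FPKM of 12 genes on logarithmic y axes in WRRh, WRRl, XHh and XHl, each point being 1 library and each line joining the heavy and light library of a breed. In the upper row the White Rock line climbs and the Xinghua line is near level or falls slightly, in the middle row the lines run in opposite directions, and in the lower row GLRX and PPP1R27 run in opposite directions while PFKFB3 and TPM2 have a steep Xinghua line.

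Genes of the contractile apparatus were taken by isoform group. The 17 members on the list of the fast sarcomere had a median difference of -0.16 and none was 2-fold apart. Of the 11 members on the list of slow, cardiac and embryonic sarcomere genes, 5 had a difference of -1 or less and 1 of 1 or more. The shares over all members were 2.44% and 1.52%. The median difference was -0.57. With a pseudocount of 5, 3 instead of 5 had a difference of -1 or less.

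TNNT2, the cardiac troponin T that is also made in embryonic skeletal muscle, had 2.90 FPKM in WRRh and 24.2 in WRRl, against 2.51 in XHh and 2.78 in XHl, with responses of 2.69 and 0.10. MYBPC3, the cardiac myosin binding protein C, had 2.09, 6.08, 7.83 and 7.63 FPKM, with a difference of -1.23. FHL2, a LIM protein of heart and muscle, had 25.8 FPKM in WRRh and 57.9 in WRRl, against 54.5 in XHh and 48.8 in XHl, with a difference of -1.29. TNNT2 reached the minimum mean through WRRl alone, which conditions its place among the 5 genes, whereas for MYBPC3 and FHL2 WRRh was the low library and the other 3 were alike.

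ACTC1, the cardiac alpha-actin of early muscle, had 267 FPKM in WRRh and 391 in WRRl, against 82.9 in XHh and 387 in XHl, with responses of 0.55 and 2.21. TPM2, beta-tropomyosin, had 1306 FPKM in WRRh and 1029.7 in WRRl, against 4223 in XHh and 1418 in XHl, with responses of -0.34 and -1.57. ACTC1 was low and TPM2 high in the heavy Xinghua library alone, and the difference of TPM2 was -0.81 after quantile normalization. PVALB, parvalbumin, a calcium buffer that speeds relaxation of fast fibres, had 15.3 FPKM in WRRh and 3.87 in WRRl, against 0.663 in XHh and 5.20 in XHl, with responses of -1.74 and 1.90. PVALB reached the minimum mean through WRRh, so its pattern follows in part from that filter. Across the processing settings its difference ran from 2.04 to 4.95.

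On the lists of energy metabolism, which the members cover only in part, differences of 2-fold were those of single genes. PFKFB3, which makes the activator of phosphofructokinase and so speeds glycolysis, had 98.8 FPKM in WRRh and 76.3 in WRRl, against 43.5 in XHh and 189 in XHl, with responses of -0.37 and 2.10. Of the 6 members on the list of glycolysis and lactate it was the 1 that was 2-fold apart, and the other 5 had differences between -0.40 and -0.11. Over all members the share 2-fold apart was 3.96%. These 6 are a small part of the 27 genes on that list, and GAPDH, HK2 and PFKM were listed at 0 in every library. PDK4, which blocks the entry of pyruvate into the mitochondrion, had 19.0 FPKM in WRRh and 87.1 in WRRl, against 265 in XHh and 514 in XHl, so it was higher in light birds of both breeds, with responses of 2.14 and 0.96. COX7A2, a subunit of cytochrome oxidase, had 65.9, 91.5, 48.5 and 22.4 FPKM. It was the 1 of 27 respiratory chain members that was 2-fold apart, at -1.55, a count near the share over all members. Of these 27, 19 had a difference above 0, which was 70.4% against 54.4% of all members.

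Genes of the mitochondrial ribosome differed by little, most of them in the same direction. Of 41 members, 35 had a difference above 0, against 54.4% of all members. The medians were -0.09 in White Rock and 0.10 in Xinghua, and 1 member was 2-fold apart, against 3.96% of all members. That gene, MRPS31, had 165 FPKM in WRRh and 95.3 in WRRl, against 156 in XHh and 187 in XHl. Its gene model is shorter than the 300 bp asked of genes named by rule. Cytosolic ribosomal proteins were higher in the light birds of both breeds in 27 of 30 members, against 34.5% of all members, with medians of 0.13 and 0.19.

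Genes of muscle wasting and amino acid stress gave single examples in both directions. FOXO3, a transcription factor that drives genes of protein breakdown, had 14.1 FPKM in WRRh and 30.8 in WRRl, against 92.7 in XHh and 90.9 in XHl, with responses of 1.07 and -0.03. ASNS, asparagine synthetase, had 5.92, 17.0, 4.38 and 4.60 FPKM, with responses of 1.38 and 0.06. It reached the minimum mean through WRRl, so its standing high there follows in part from that filter. CHAC1, which breaks down glutathione, had 74.4 FPKM in WRRh and 42.3 in WRRl, against 277 in XHh and 409 in XHl, with responses of -0.80 and 0.56. WRRh was the lowest library for FOXO3, WRRl was the highest for ASNS, and both Xinghua libraries were above both White Rock libraries for FOXO3 and CHAC1. The 25 members of the list of atrophy and ubiquitin ligases had a median difference of 0.12. NEDD4, a ubiquitin ligase whose locus overlaps another gene model, was 2-fold apart on the higher side and FOXO3 on the lower. The shares over all members were 1.52% and 2.44%. With a pseudocount of 5 neither was 2-fold apart, NEDD4 being at 0.82 and FOXO3 at -0.93. The 16 proteasome members had a median difference of 0.07, and none was 2-fold apart.

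Redox genes had median responses of 0.29 in White Rock and -0.06 in Xinghua over 20 members. Of these, 2 had a difference of -1 or less, against 2.44% of all members, and none of 1 or more. GLRX, glutaredoxin, which reduces glutathionylated proteins, had 114 FPKM in WRRh and 236 in WRRl, against 130.4 in XHh and 28.8 in XHl, with responses of 1.05 and -2.14. TKT, transketolase of the pentose phosphate pathway, had 11.6, 27.2, 4.81 and 4.89 FPKM and a difference of -1.15. FTH1, the ferritin heavy chain that stores iron, had 2374 FPKM in WRRh and 3976 in WRRl, against 2410.0 in XHh and 2226 in XHl, with a difference of -0.86. TKT and FTH1 were high in WRRl alone, and GLRX was low in XHl as well. The macrophage markers were also highest in WRRl, and their part in this result was not tested.

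**Figure D4:**
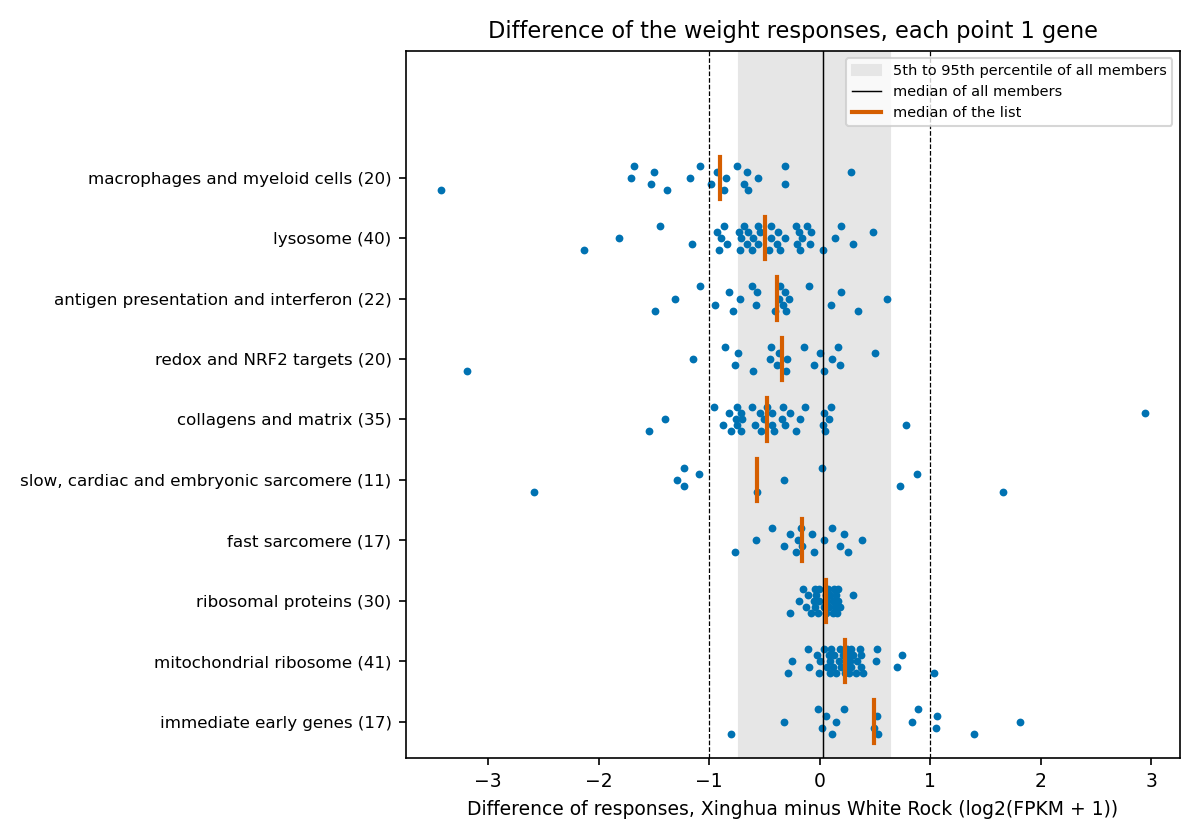
The difference of the responses (Xinghua minus White Rock, log2(FPKM + 1), x axis) is shown for each member of 10 gene lists, 1 point per gene, with the list median as an orange bar. The grey band spans the 5th to 95th percentile of all 7375 members, from -0.73 to 0.63, and the dashed lines mark 2-fold. Macrophage genes lie mostly left of the band, ribosomal proteins lie close to 0, and single genes stand far out in the redox and matrix lists.

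Of the 26 genes that responded in Xinghua alone, 14 lay on the higher side (0.19%) and 12 on the lower side (0.163%), and 6 and 7 of them had a gene name. RRAD, a small GTPase that restrains calcium channels, had 33.5 FPKM in WRRh and 27.5 in WRRl, against 7.44 in XHh and 16.6 in XHl. SLC16A9, a monocarboxylate transporter, had 20.9, 22.3, 22.9 and 51.9 FPKM. GNG10, a G protein gamma subunit, had 9.03 FPKM in WRRh and 12.01 in WRRl, against 9.87 in XHh and 3.10 in XHl. SLC16A9 was high and GNG10 low in the light Xinghua library alone, and for RRAD the heavy Xinghua library was the lowest of the 4.

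TMEM167A, a small protein of the secretory pathway, had 341 FPKM in WRRh and 413 in WRRl, against 241 in XHh and 114 in XHl, with responses of 0.28 and -1.08. UBE2QL1, a ubiquitin-conjugating enzyme, had 11.9, 10.001, 11.1 and 3.85 FPKM. Across the processing settings its difference ran from -1.27 to -0.69. XPA, a DNA repair factor whose locus overlaps another gene model, had 151 FPKM in WRRh and 178 in WRRl, against 202 in XHh and 94.2 in XHl. All 3 were lowest in light Xinghua.

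Of the White Rock genes, 79 had a difference below 0 (1.07%) and 19 above 0 (0.258%). On the lower side 48 had a gene name. SERPINI1, neuroserpin, a protease inhibitor, had 11.1 FPKM in WRRh and 46.7 in WRRl, against 2.53 in XHh and 2.31 in XHl, a difference of -2.07. It passed the minimum mean through White Rock alone, so its place here follows in part from that filter. On the higher side CETP, which moves cholesteryl esters between lipoproteins, had 95.8 FPKM in WRRh and 24.5 in WRRl, against 42.0 in XHh and 34.5 in XHl, with responses of -1.93 and -0.28. HES4, a Notch target, had 29.3, 13.5, 10.3 and 11.2 FPKM, and WRRh was the high library for it as for CETP.

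Opposite responses also marked genes outside the lists described above. SRRD had the largest difference of all members, 6.60, with 404 FPKM in WRRh and 17.5 in WRRl, against 15.2 in XHh and 71.0 in XHl, but its locus overlaps another gene model and reads shared with it could not be told apart. HBAD, the alpha-D globin of red cells, had 129.8 FPKM in WRRh and 83.6 in WRRl, against 28.2 in XHh and 67.2 in XHl, with responses of -0.63 and 1.22. It was the 1 of 6 members on the erythrocyte list that was 2-fold apart, against 3.96% of all members. The median difference of the 6 was 0.12. Not all of them are particular to red cells, TFRC being also on the lists of nutrient transporters and general cell machinery. Of the 10 genes on the erythrocyte list that matched a gene ID 9 were above 0 in all 4 libraries. The summed level of that list ran from 245 FPKM in XHh to 333 in WRRh.

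TET2, an enzyme that oxidizes methylcytosine, had 5.92 FPKM in WRRh and 12.1 in WRRl, against 15.1 in XHh and 4.05 in XHl, with responses of 0.92 and -1.67. TGFA, a growth factor of the EGF family, had 8.25, 18.3, 19.4 and 10.5 FPKM, with responses of 1.06 and -0.82. PPP1R27, a regulatory subunit of protein phosphatase 1, had 249 FPKM in WRRh and 428 in WRRl, against 879.7 in XHh and 446 in XHl, with responses of 0.78 and -0.98. In TET2 and TGFA the light White Rock and heavy Xinghua libraries were the high pair, the mirror image of TNMD and OTOR.

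TSPO, a mitochondrial outer membrane protein, had 13.6 FPKM in WRRh and 24.2 in WRRl, against 13.9 in XHh and 8.24 in XHl. SPON1, a secreted matrix protein, had 7.31, 11.8, 6.01 and 3.03 FPKM, so both were at their highest in light White Rock and their lowest in light Xinghua. Among the 292 genes the gap between the breeds was wider in the light birds for 153, not wider for 93, and turned its sign for 46, with at least 0.5 on each side. These genes were chosen by the change in this gap, and the same split over all members was not computed.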

How the data were processed

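RNA-seq was done on 4 libraries, each a pool of 3 birds. The deposited tables hold FPKM values that the authors computed per gene and library, with 17934 gene IDs per table. TopHat and the galGal4 build are named in the submitters' processing notes, the version being not given in the sources used here. Which build the loci follow was not established, so no positions are printed. Counts are not in these tables, and expression fold changes, p-values and q-values of the authors' pairwise comparisons were not used. No per-sample column was left unmatched (0). The 2 libraries of a breed come from the same table, whose sample columns give breed and weight class by their initials, and levels between breeds are set across tables.

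Values were compared as log2(FPKM + 1), a scale that understates changes of low genes, using pandas 2.3.3 and numpy 2.4.6 under Python 3.11.15, and figures were drawn with matplotlib 3.10.9. The 4 libraries leave 0 residual degrees of freedom, so no test was run, and a difference of at least 1, 2-fold, was used as a size limit. A response seen in 1 breed was at least 1 there and under 0.5 in size in the other. Opposite responses were each at least 0.5 in size. The scripts were tested on simulated data.

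The members and gene lists were chosen with earlier results of these data known. Named genes were the 15 most extreme per direction, 8 per class and direction and 4 per list, with a symbol and a locus of at least 300 bp. Further list members were named after their values were seen, among them MRPS31, whose locus is shorter. Symbols came from the tables, from 285 UniProt entry names and from 25 names in the study's tables, and some aliases were matched after values were seen. Overlapping gene models may share reads. Alternatives were other pseudocounts, minimum levels, scalings and limits. The study's qPCR, siRNA and SNP experiments were not analysed here, and the result for a single gene is not reported here.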

Additional observations from a re-analysis of the deposited data

Results flagged for a closer look

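For 16 named genes the light birds differed from the heavy birds in opposite directions in the 2 breeds, by at least 0.5 on the log2(FPKM + 1) scale in each. With 1 library per condition the difference was not tested for any of them, and the values in each library are given above for the genes described there.

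The Xinghua response minus the White Rock response was 6.60 for SRRD, 3.72 for OTOR, 3.64 for PVALB, 2.94 for FMOD, 2.87 for TNMD, 1.85 for HBAD, 1.82 for KLF4 and 1.67 for ABRA, all higher in light Xinghua and lower in light White Rock. It was -3.19 for GLRX, -2.98 for SCARNA6, -2.59 for TET2, -1.89 for TGFA, -1.76 for PPP1R27, -1.62 for AGPHD1, -1.48 for TSPO and -1.42 for SPON1, in the reverse direction. The loci of SRRD and SCARNA6 overlap another gene model. SCARNA6, a small Cajal body RNA, had 2.39 FPKM in WRRh and 6.93 in WRRl, against 9.08 in XHh and 1.99 in XHl, and AGPHD1, a hydroxylysine kinase, had 4.65, 9.88, 10.8 and 6.35 FPKM. SCARNA6 reached the minimum mean through WRRl and XHh, so its pattern follows in part from that filter.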

How the results depend on the processing

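The count of 292 differing genes stayed within 1.5 times under a pseudocount of 0.1 (345) or none (354), median-of-ratios scaling (288), quantile normalization (295) and median centring (291). Filling a listed 0 with a value above 0 from the other table of that library also gave 292. That setting could not change the value of any member. A pseudocount of 5 gave 137 genes, 44 higher and 93 lower, with 11 in Xinghua alone, 53 in White Rock alone and 28 opposite. A minimum mean of 1 FPKM gave 552, 190 and 362, with 42, 197 and 109. A minimum of 10 gave 166, 65 and 101, with 16, 52 and 30. No minimum gave 590, 200 and 390, with 45, 205 and 119. At least 5 FPKM in every library gave 167 in all and 90 lower, with 14, 42 and 33. Keeping genes listed at 0 gave 177 higher and 57 in Xinghua alone, and leaving out overlapping or short gene models gave 16 in Xinghua alone. A limit of 0.25 in the other breed gave 14 and 65, and a minimum of 0.75 in each breed left 20 opposite genes. No list median at the size limit turned its sign. Of 70 named 2-fold genes, 46 kept their side and direction in every setting in which they were tested, some filters leaving genes out. Described genes that fell below 2-fold in some setting included UBE2QL1, SLC16A9, COL14A1, SPON1, TKT, PDK4, GUSB, ASNS, HES4, BTG2 and CTGF.

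A difference needs all 4 libraries, so leaving out a library gives no value. No paired analysis was possible because each group has 1 library. These values carry no replicate error, the pools hide bird to bird variation, and breed and supplier cannot be told apart. The libraries differed in reported depth, XHl being the deepest, and its part in low levels and listed zeros was not tested.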

Other observations

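Of the genes that reached the minimum mean, 132 were listed at 0 in 1 library or more and were left out of the contrast. A 0 in exactly 1 library was found for 9 genes in WRRh and 21 in WRRl, and for 12 in XHh and 11 in XHl. MMP7, a matrix metalloproteinase, had 42.9 FPKM in WRRh, 145 in WRRl and 0.0869 in XHl and was listed at 0 in XHh. JSRP1, a protein of the sarcoplasmic reticulum, had 189 FPKM in WRRh, 84.7 in XHh and 112 in XHl and was listed at 0 in WRRl. HMGA2, a chromatin protein of growing tissues, had 34.5 FPKM in WRRl and was listed at 0 in the other 3 libraries. EX-FABP, an avian lipocalin, had 6.84 FPKM in WRRh, 39.3 in WRRl and 6.17 in XHh and was listed at 0 in XHl.

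Of the 305 members on chromosome Z, 13 differed by 2-fold (4.26%), 2 higher and 11 lower in the Xinghua response, against 3.96% of all members. GNG10, TMEM167A, XPA and TPM2, 4 of the 12 genes lower in Xinghua alone, lie there, and 4.14% of all members do.

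Of the 15 genes at least 2-fold higher in the light birds of both breeds, ST8SIA2, a sialyltransferase that builds polysialic acid on neural cell adhesion molecule, had 3.30 FPKM in WRRh and 9.25 in WRRl, against 4.03 in XHh and 16.3 in XHl. It was low in both heavy libraries and high in both light ones, with responses of 1.25 and 1.78. The minimum mean was reached through the light libraries, so this pattern follows in part from that filter.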
